A study of Homo sapiens with 18 samples.

Results

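PU was set directly against KPT in MAVER, a human mantle cell lymphoma line, with 3 libraries labelled PU and 3 labelled KPT, 6 of the 18 libraries of the series. They were chosen by their sample titles alone, not by any measured value. Of 25369 genes in the MAVER table, the 11099 with a mean of at least 10 normalized counts over the 12 MAVER libraries were tested. All 6 libraries came from cells harvested at 6 h. KPT was read as selinexor at 1.5 µM, since the series description names that inhibitor of the nuclear exporter XPO1, while the label PU is given as written, with no definition or dose in the labels. The other MAVER libraries had DMSO, the solvent, or IB, read as the BTK inhibitor ibrutinib, and the remaining 6 libraries of the series came from JEKO1, another line of the same lymphoma. Replicates are lettered A, B and C and called biological. Nothing in the labels says that they came from separate cultures, so the p-values measure only how these libraries spread, which may be technical. MAVER is 1 line, so nothing below speaks for other cells.

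XPO1 carries proteins with a leucine-rich export signal out of the nucleus in exchange with the Ran GTPase cycle, and selinexor occupies the groove that binds this signal. The heat shock response is the induction of chaperones that fold new or damaged proteins: Hsp70 with its J-domain and nucleotide exchange partners, Hsp90 with its co-chaperones, and the small heat shock proteins. Its master factor, HSF1, binds inverted repeats of the unit GAA, named heat shock elements. Mantle cell lymphoma is a B cell cancer known for high cyclin D1, encoded by CCND1.

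Recovered depth was 8035123 to 17040599 reads with PU and 5374226 to 7924550 with KPT, so KPT libraries were the shallower. Libraries of the same treatment correlated at 0.9910 or more across genes, and no PU library correlated above 0.9702 with a KPT library. RNA45S5, the ribosomal RNA precursor, stood at 53819, 9092 and 66933 normalized counts in KPT A, B and C and at 32274, 15503 and 15476 in PU A, B and C. Its groups overlapped (log2 difference, PU minus KPT, -0.69 ± 0.35 SE, limma adjusted p = 0.0861). The B cell markers MS4A1, CD79A, CD79B and PAX5 and the lymphoma markers CCND1 and SOX11 were present in all 6 libraries. Of 15 T and NK cell markers, 10 were listed at 0 in all 6 libraries, CD3D and CD3E among them, as were 9 of 15 myeloid markers, CSF1R and MPO among them. Of the T and NK markers only PRF1, the perforin of cytotoxic granules, was high enough to be tested. It stood at 100.4, 122 and 142 normalized counts with KPT and 113, 121 and 138 with PU, so these groups overlapped (0.04, limma adjusted p = 0.846), and both lay over the DMSO mean of 67 (0.84 and 0.87). The myeloid markers CD68 and ITGAM were present at low levels, from 8.97 to 26.9, and neither passed the test between PU and KPT. Values of near-identical gene copies, and of genes that overlap, are uncertain throughout, since how reads were assigned by strand is unknown here.

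Across the tested genes, 57.0% were called at a Benjamini-Hochberg adjusted p under 0.05 (limma on log2 of the normalized count plus 1). Of these 6323 genes, 3145 (28.3% of those tested) were higher with PU and 3178 (28.6%) lower. The median difference over all genes was -0.01 on the log2 scale. That median depends on the 1 factor by which each library was scaled. Neither it nor the near-even split can show whether there was a general shift between the drugs. The near-even split moved a little with the scaling: 2909 were higher and 3429 lower with libraries scaled to equal totals, and 2879 and 3472 when RNA45S5 was left out of those totals. Most calls were small: 4053 were under 0.5 on the log2 scale (64.1% of calls), 1732 lay between 0.5 and 1, and 538 were at least 2-fold. Large differences leaned to PU, with 311 genes at least 2-fold higher and 227 at least 2-fold lower, and 47 and 13 at 4-fold or more. The lean was smaller with equal totals without RNA45S5, at 282 against 250. The minimum mean of 10 was reached through PU alone by 13 genes, 12 of them called higher, and through KPT alone by 13, 11 of them called lower. Such genes had to differ, and they add little to the counts. The 3 PU and 3 KPT libraries did not overlap for 60.6% of genes, so such separation alone does not mark a gene out. Calls also depended on level: 30.1% of genes with a mean of 10 to 50 were called, against 69.1% of those at 500 or more. Against DMSO, 55.9% of genes were called with KPT and 55.1% with PU. Of the 11099 genes, 3035 rose and 3167 fell with KPT, and 3066 rose and 3055 fell with PU. Those comparisons share the 3 DMSO libraries, so their values are only set side by side below. In bulk libraries, fewer cells with a transcript and less of it per cell cannot be told apart.

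**Figure D1:**
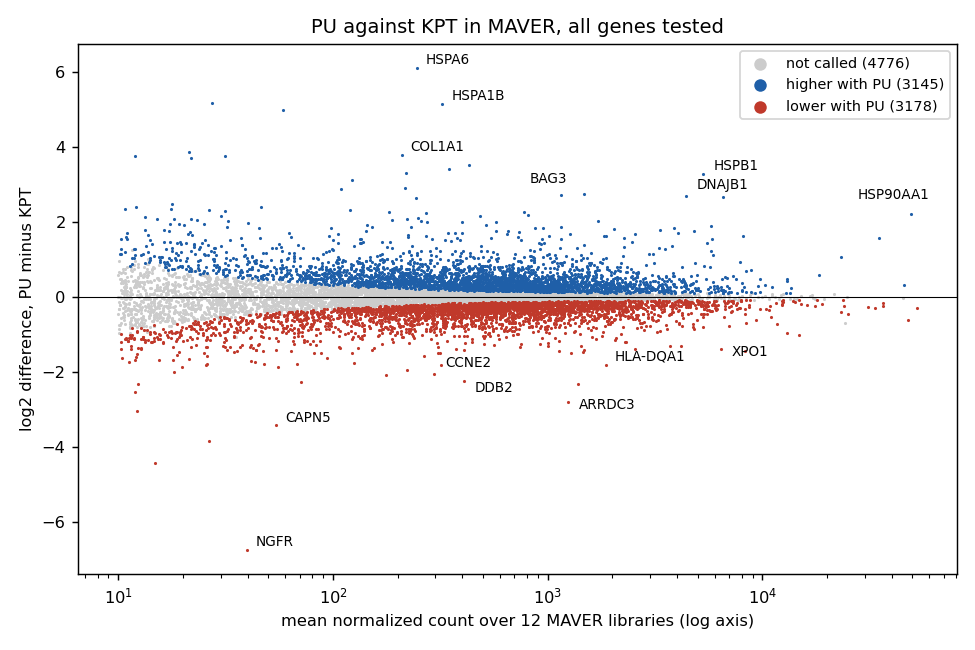
Each point is 1 of 11099 genes, by its mean normalized count over the 12 MAVER libraries (log axis) and its log2 difference, PU minus KPT. Called genes are blue (3145 higher with PU) or red (3178 lower). HSPA6 (6.10) and HSPA1B (5.14) lie at the top, NGFR at the bottom, and HSP90AA1 (2.21) is the labelled gene farthest to the right. NGFR reached the minimum mean for testing only through the KPT libraries, where it is high. Its point is a description with no test.

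The chaperone genes of the heat shock response were the clearest group higher with PU. Over all genes, 28.3% were higher and 28.6% lower. Of 40 tested members of the heat shock list, 33 were higher, 3 lower, and the median difference was 1.48 on the log2 scale. Together they took 4.35, 4.44 and 4.26% of all reads in PU A, B and C, against 1.46, 1.46 and 1.42% in the KPT libraries and 1.46 to 1.51% with DMSO. Against DMSO, 32 members rose with PU and 4 fell (median 1.39), while 12 rose and 14 fell with KPT (median -0.06). The genes named by role below include some chosen after their values were seen.

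Among the Hsp70 genes, HSPA6 encodes a strictly inducible form. It stood at 951, 936 and 954 normalized counts in PU A, B and C and at 8.97, 15.4 and 15 in KPT A, B and C. Every PU library was high and every KPT library near the DMSO mean of 13.2 ± 4.96 (SD, n = 3), a log2 difference of 6.10 ± 0.24 (SE; limma adjusted p = 8.67e-24), from 3458 reads with PU and 30 with KPT. HSPA1B, a major inducible Hsp70, stood at 983, 1373 and 1245 with PU and 28.7, 38 and 32.4 with KPT. Its libraries were as clearly parted (5.14 ± 0.19), though its reads can be shared with its near-identical copy HSPA1A, which was too low to be tested. HSPA8, the constitutive Hsp70, stood at 38365, 36008 and 35452 with PU and 18566, 17171 and 17252 with KPT. The PU libraries lay together at 2.07-fold the KPT level (1.05 ± 0.04; limma adjusted p = 3.20e-24), and with KPT it lay below DMSO (-0.31, KPT minus DMSO; 0.74 for PU minus DMSO).

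Partners of Hsp70 were higher too. DNAJB1, the J-domain protein that loads substrates onto Hsp70, stood at 12176, 12071 and 12313 normalized counts with PU and 1919, 1889 and 1863 with KPT. The PU libraries lay together at 6.44-fold the KPT level (log2 2.69 ± 0.04 SE; limma adjusted p = 6.55e-38), while KPT did not pass the test against DMSO (-0.03, adjusted p = 0.601). HSPH1 (Hsp110), a nucleotide exchange factor, stood at 17647, 17027 and 16783 with PU and 2785, 2623 and 2663 with KPT. Here the KPT libraries lay under the DMSO mean of 3614 ± 115 (SD, n = 3) and the PU libraries over it, so the direct difference of 2.67 ± 0.04 was larger than that of PU from DMSO (2.25). BAG3, another exchange factor that also links Hsp70 to autophagy, stood at 4189, 4250.4 and 4707 with PU and 681, 618 and 663 with KPT. Both drugs lay over the DMSO mean of 478, by 3.19 with PU and 0.45 with KPT on the log2 scale. The J-domain genes DNAJA4 (2.91), DNAJA1 (1.36) and DNAJB6 (1.03) were also higher with PU, on the log2 scale. DNAJA2 was higher by only 0.14, and DNAJC2 (-0.10) did not pass the test.

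Hsp90 genes and their helpers followed. HSP90AA1, the inducible cytosolic Hsp90, stood at 128494, 135668 and 126139 normalized counts with PU and 27877, 29071 and 27609.9 with KPT. No library of either group came near the other (log2 2.21 ± 0.04 SE; limma adjusted p = 1.98e-36). HSP90AB1, the constitutive form, stood at 72368, 72108 and 71544 with PU and 25219, 23930.2 and 24372 with KPT, the KPT libraries lying close to the DMSO mean of 23652. It was higher by 1.56 ± 0.04 on the log2 scale. Among co-chaperones, AHSA1, which stimulates the Hsp90 ATPase, was higher by 1.84, FKBP4 by 1.88, and STIP1, which bridges Hsp70 and Hsp90, by 1.53. CDC37, the adaptor for kinases, did not pass the test (0.07 ± 0.05, adjusted p = 0.196). HSPB1, the small heat shock protein Hsp27, stood at 16169, 16958 and 17505 with PU and 1788, 1701 and 1728 with KPT. All PU libraries were high, at 9.7-fold the KPT level (3.28 ± 0.06; limma adjusted p = 2.07e-35), and KPT itself lay over DMSO by 0.31.

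Other chaperones differed less, or in the other direction. In mitochondria, the chaperonin HSPD1 stood at 16109.6, 15685 and 14484 normalized counts with PU and 5063, 4876 and 4968 with KPT, with no overlap (log2 1.63 ± 0.04 SE). Its co-chaperonin HSPE1 was higher by 1.43 and the mitochondrial Hsp70 HSPA9 by 0.80. Of 13 tested subunits of the cytosolic chaperonin TRiC and of prefoldin, 7 were higher and 2 lower (median 0.11), led by CCT4 (0.83) and CCT3 (0.72), while the prefoldin subunit PFDN5 was lower (-0.23). The 3 members of the heat shock list that were lower with PU were HSPB11 (-0.75), a ciliary transport protein despite its name, HSPA13 (-0.42) and HSF1 itself. HSF1 stood at 699, 610.3 and 771 with PU and 895, 859 and 912 with KPT, every PU library lying below every KPT library (-0.36 ± 0.06, adjusted p = 4.11e-06).

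In the list of endoplasmic reticulum genes the direction turned for most of those called. Of 33 genes of folding and the unfolded protein response there, 17 were lower with PU and 7 higher (median -0.19). The shares of all genes were 28.6% and 28.3%. HSPA5 (BiP), the Hsp70 of this compartment, stood at 3456, 3446 and 3315 normalized counts with PU and 6090.1, 5774 and 5948 with KPT. The KPT libraries lay near the DMSO mean of 6274 ± 123 (SD, n = 3) and the PU libraries well below (PU minus KPT -0.80 ± 0.04 SE; limma adjusted p = 8.41e-21). DNAJB9 (-1.51), the secreted factor MANF (-1.26), calreticulin CALR (-0.71) and the Hsp90 of this compartment, HSP90B1 (-0.26), were lower as well. ERN1, which encodes the stress sensor IRE1, went the other way, with 451, 425 and 467 against 156, 135 and 156 (1.58 ± 0.11). XBP1, the factor whose RNA IRE1 splices, differed by only -0.10 ± 0.04 (adjusted p = 0.0271).

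**Figure D2:**
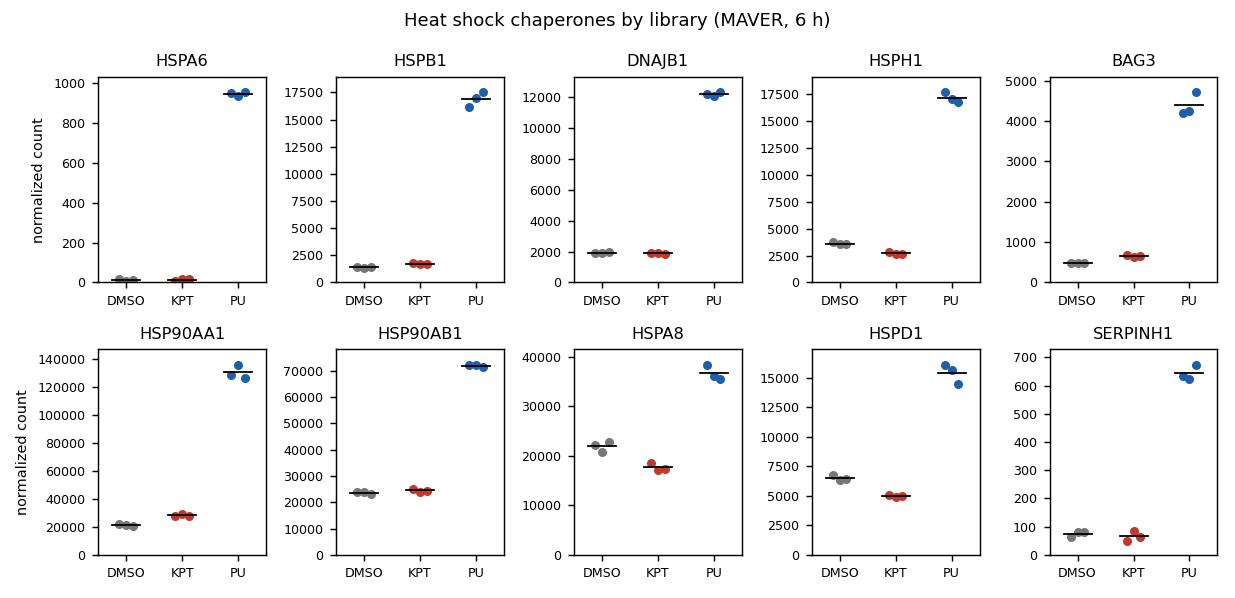
Normalized counts (y axes from 0) of 10 chaperone genes in each DMSO, KPT and PU library; points are libraries and bars are means of n = 3. In all 10 panels the 3 PU libraries lie above every KPT and DMSO library, and KPT lies closer to DMSO than to PU.

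Promoters were searched for the heat shock element, because these genes are its textbook carriers. RefSeq promoters on GRCh38.p14, covering 250 bases before and 50 after each start, were matched to 9019 of the 11099 tested genes, giving 8954 distinct promoters. The element was taken as 3 alternating GAA units on either strand: GAANNTTC followed by NNGAA, or TTCNNGAA followed by NNTTC. It occurred in 11 of 245 promoters (4.49%) of genes at least 2-fold higher with PU, in 0 of 173 of genes at least 2-fold lower, in 28 (0.313%) of all tested promoters and in 133 of 27305 (0.487%) in the RefSeq table. Within the heat shock list, 6 of the 24 matched members at least 2-fold higher held it (25%). The stretches of 5 of those 6 that lie before the start are shown, since they carry the element named above, with the matched bases in capitals. They lie at chr1:161524451-161524493 on the plus strand for HSPA6, chr11:75562162-75562204 on the plus strand for SERPINH1, chr11:90223072-90223124 on the minus strand for CHORDC1, chr11:123062149-123062221 on the minus strand for HSPA8 and chr7:157336858-157336900 on the plus strand for DNAJB6. Each reads 5′ to 3′ along its gene.
HSPA6: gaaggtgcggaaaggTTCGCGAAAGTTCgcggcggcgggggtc
SERPINH1: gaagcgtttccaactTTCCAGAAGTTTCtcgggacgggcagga
CHORDC1: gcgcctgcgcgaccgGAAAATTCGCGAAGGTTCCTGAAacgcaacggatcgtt
HSPA8: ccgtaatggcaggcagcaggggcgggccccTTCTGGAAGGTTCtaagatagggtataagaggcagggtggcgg
DNAJB6: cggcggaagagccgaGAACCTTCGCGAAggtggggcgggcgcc
The matches of HSPA6, SERPINH1, CHORDC1 and HSPA8 end 61, 63, 37 and 42 bases before the start, and that of DNAJB6 118. HSPA8 holds a further match, which is not shown. CHORDC1, an Hsp90 co-chaperone, holds 3 overlapping matches, and its gene stood at 4502, 4395 and 4044 normalized counts with PU and 1173, 1311 and 1241 with KPT (1.80 ± 0.05, log2, SE). Outside the list, 5 of 221 promoters (2.26%) of genes at least 2-fold higher held a match. One was that of JAK3, the cytokine receptor kinase, with 764, 708 and 844 against 292, 248 and 277 (1.50 ± 0.09, chosen after its values were seen). A match is a string of letters and not a shown binding site.

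Genes for collagen and its processing were also among the 15 largest rises, a grouping made after the values were seen. COL1A1, the alpha 1 chain of type I collagen, stood at 652, 655 and 733 normalized counts with PU and 44.8, 42.8 and 58.6 with KPT. The KPT libraries lay near the DMSO mean of 61.1 ± 2.19 (SD, n = 3), and the PU libraries were far above both (PU minus KPT 3.79 ± 0.14 SE; limma adjusted p = 8.63e-25). The collagen chaperone SERPINH1 (Hsp47), whose promoter stretch is shown above, stood at 634, 622 and 674 against 50.2, 84.3 and 63.5, with no overlap (3.30 ± 0.14). P4HA2, a subunit of collagen prolyl hydroxylase, stood at 1318, 1294 and 1358 against 109, 101 and 138. It and its relative P4HA1 were higher in all PU libraries (3.51 ± 0.11 and 1.67 ± 0.07), as was the lysyl hydroxylase PLOD1, at 3064, 2916 and 3168 against 513, 442 and 457 (2.70 ± 0.06). COL1A1 is also one of the 14 stromal and epithelial markers, whose summed level was 1547 to 1595 with PU, 614 to 663 with KPT and 551 to 612 with DMSO. Of these 14, 7 were listed at 0 in all 6 libraries, COL3A1, DCN, LUM, VWF and CDH1 among them, and COL1A1, PECAM1 (0.68) and EPCAM (0.46) were called higher. The EPCAM call was lost with KPT B as the only KPT library (0.27, adjusted p = 0.107).

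Other genes among the 15 largest rises had no common role. PGF, a growth factor of the VEGF family, stood at 203, 223 and 231 normalized counts with PU and 10.8, 7.13 and 2.49 with KPT. Its KPT level rests on 14 reads, and all PU libraries were high. PGF reached both the mean of 10 for testing and the mean of 50 for named genes only through the PU libraries, so its values are a description with no test. HSPA6, HSPA1B and DOK2 also reached the mean of 50 only through PU, but did not depend on PU for the mean of 10. LCN10, a lipocalin, stood at 1116, 1156 and 1152 against 109, 120.0 and 94.7. With KPT it already lay over DMSO (0.69), and the PU libraries lay over both (3.40 ± 0.12). DOK2, an adaptor that dampens tyrosine kinase signals, stood at 373, 377 and 382 against 41.2, 44 and 43.6 (3.11 ± 0.17), without overlap.

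Serine and amino acid genes linked to ATF4 were mostly higher with PU, while ATF4 was lower. ATF4 is the transcription factor of the integrated stress response, and it is known to be controlled largely at translation. Of 26 tested members of the list, 17 were higher and 5 lower (median 0.47), against 28.3% and 28.6% of all genes. CBS, which makes cystathionine from serine and homocysteine, stood at 294, 285 and 291 normalized counts with PU and 35.9, 46.3 and 34.9 with KPT. All PU libraries were high, and KPT lay under the DMSO mean of 54.3 (PU minus KPT 2.87 ± 0.16 SE; limma adjusted p = 6.68e-19). The serine synthesis genes PSAT1 and PHGDH stood at 2640.3, 2621 and 2679 and at 6601, 6650.1 and 6782 with PU. With KPT they stood at 809, 880.2 and 790.0 and at 2722, 2717 and 2857. Each was separated in all libraries (1.68 ± 0.05 and 1.27 ± 0.04). ALDH1L2 of folate metabolism (2.62), asparagine synthetase ASNS (0.96) and DDIT4, an inhibitor of mTORC1 (1.31), were higher too. ATF4 itself stood at 1952, 2111 and 2207 with PU and 2991, 3099 and 3142 with KPT, the PU libraries all lower (-0.56 ± 0.05). DDIT3 (CHOP), a death-linked factor downstream of ATF4, was lower too, with 128, 163 and 133 against 303, 318 and 248 (-1.03 ± 0.11).

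Amino acid transporters and tRNA synthetases were divided, beside shares of 28.3% higher and 28.6% lower over all genes. Of 14 transporters, 8 were higher and 4 lower (median 0.19), and of 19 synthetases 9 and 5 (median 0.10; 3 lower with KPT B as the only KPT library). The glycine transporter SLC6A9 stood at 423, 426 and 507 normalized counts with PU and 102, 93.8 and 86 with KPT, with KPT at the DMSO level (97.2 ± 18.1, SD, n = 3). It was higher in every PU library (2.25 ± 0.13 SE). SLC7A5, the leucine transporter, stood at 8225, 7741 and 8857 against 3951, 3671 and 3788 (1.12 ± 0.04). Here KPT lay below DMSO (-0.68) and PU above it (0.44). SLC38A2, which imports neutral amino acids with sodium, went the other way, at 1683, 1625 and 1571 against 3241, 3219 and 3209.7 (-0.99 ± 0.05). Among synthetases, WARS for tryptophan was higher by 1.78 ± 0.04 and MARS for methionine by 1.13 ± 0.04, while TARS for threonine was lower (-0.42). Oxidative stress genes linked to NRF2 were divided too, with 12 of 25 higher and 7 lower (median -0.00; 4 lower with KPT B alone). HMOX1, which breaks down haem and is also a heat-inducible gene, stood at 2029, 2114 and 2132 with PU and 565, 606 and 579 with KPT (1.84 ± 0.06), and the libraries did not overlap.

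XPO1, the target of selinexor, differed between the drugs. It stood at 4479, 4168 and 4132 normalized counts with PU and 11624, 11159 and 10947 with KPT. The KPT libraries lay above the DMSO mean of 5232 ± 99.2 (SD, n = 3) and the PU libraries below it, so XPO1 was 2.64-fold higher with KPT than with PU (PU minus KPT -1.40 ± 0.04 SE; limma adjusted p = 6.20e-28). Of 49 nuclear transport genes, 15 were higher with PU and 21 lower (median -0.04), against 28.3% and 28.6% of all genes. Against DMSO, 36 transport genes fell with each drug and 5 (KPT) or 4 (PU) rose. RANGAP1, which stimulates the Ran GTPase in the cytoplasm, stood at 7045, 6652 and 7110.1 with PU and 2243, 1987 and 2157 with KPT. It was higher in all PU libraries (1.70 ± 0.05), KPT lying below DMSO (-0.70) and PU above it. The importin KPNA2 (0.90) and RANBP3, a cofactor of export by XPO1 (0.94), were higher with PU. For KPNA2, PU did not pass the test against DMSO (0.05, limma adjusted p = 0.393), and KPT lay below DMSO (-0.85). The exporter XPO6 was lower (-0.73 ± 0.05).

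Several of the genes furthest below with PU lay near DMSO with PU and far above it with KPT. CAPN5, a calpain protease, stood at 14.6, 13.6 and 16.8 normalized counts with PU and 183, 153 and 177 with KPT. The PU libraries lay at the DMSO mean of 14.5 ± 6.57 (SD, n = 3), and PU did not pass the test against it (0.14, adjusted p = 0.697; PU minus KPT -3.43 ± 0.27 SE, adjusted p = 4.65e-14). ARRDC3, an arrestin-domain protein of receptor trafficking, stood at 529, 494 and 488 against 3518, 3435 and 3549. It was 6.94-fold higher with KPT (-2.80 ± 0.06), and PU again did not pass the test against DMSO (0.05, adjusted p = 0.506). PPDPF stood at 676, 684 and 768 against 3667, 3372 and 3721 (-2.34 ± 0.06), with PU at 0.10 from DMSO (adjusted p = 0.2). Also lower with PU, on the log2 scale, were MEX3B, an RNA-binding protein (-2.27), TUFT1 (-2.09), MTURN (-1.88), SLC2A4RG (-1.81), LXN, a carboxypeptidase inhibitor (-1.80), the monocarboxylate transporter SLC16A6 (-1.76) and NCR3LG1, a ligand of the natural killer receptor NKp30 (-1.63). NGFR, the p75 neurotrophin receptor, was chosen after its values were seen, since its mean is under the minimum for named genes. It had 85, 128 and 131 reads in KPT A, B and C and 0, 1 and 1 in PU A, B and C. In normalized counts that is 152, 152 and 163 against at most 0.931, and the DMSO mean was 0.896 ± 0.958 (SD, n = 3). NGFR reached the minimum mean of 10 only through the KPT libraries, where it is high, so no test is given for it. CAPN5, MTURN and LXN reached the mean of 50 required of named genes only through KPT.

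**Figure D3:**
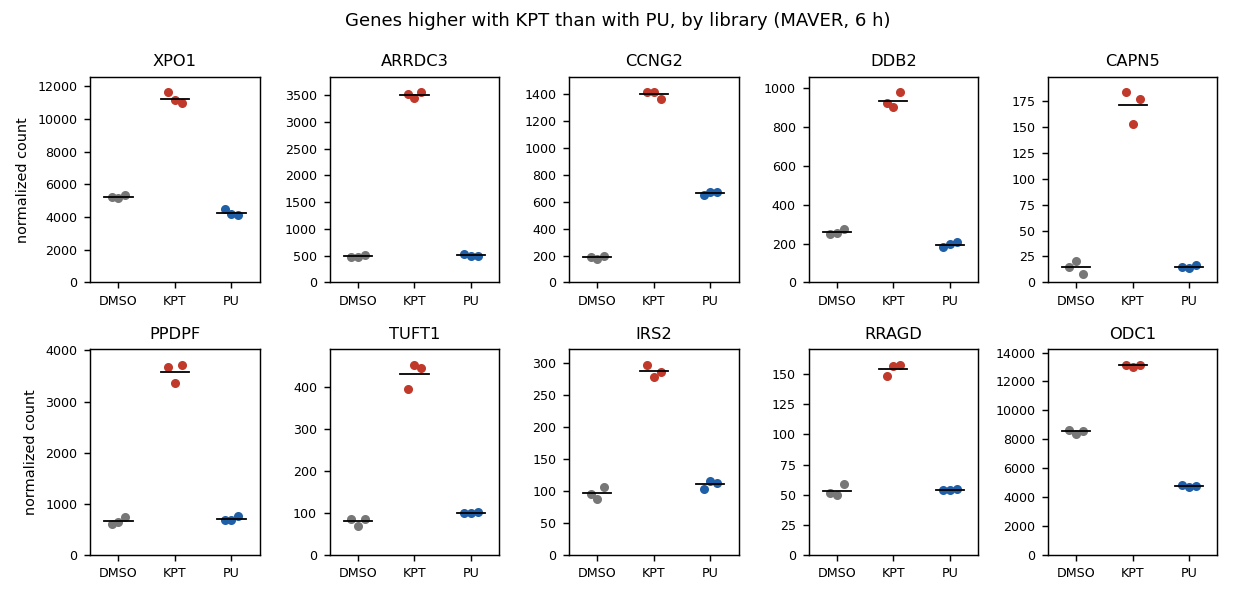
Normalized counts (y axes from 0) of 10 genes higher with KPT than with PU, by library; points are libraries and bars are means of n = 3. In every panel the 3 KPT libraries lie above the 3 PU libraries; ARRDC3, CAPN5, PPDPF and RRAGD with PU lie near DMSO, CCNG2 with PU lies between, and XPO1, DDB2 and ODC1 with PU lie below DMSO.

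Some FOXO-linked and p53-linked genes showed this pattern, and others did not. FOXO factors drive genes of quiescence and atrophy when growth signals fall. Of 34 tested members, 16 were lower with PU and 9 higher (median -0.11), against 28.6% and 28.3% of all genes. Against DMSO, however, most members rose with either drug (27 with KPT, 23 with PU), beside 3035 and 3066 of all 11099 genes. CCNG2, the growth-restraining cyclin G2, stood at 652, 675 and 674 normalized counts with PU and 1415, 1415 and 1368 with KPT. The PU libraries lay between KPT and the DMSO mean of 188 ± 12 (SD, n = 3), so CCNG2 rose with both drugs and less with PU (PU minus KPT -1.07 ± 0.07 SE; limma adjusted p = 3.42e-17). IRS2, the insulin receptor substrate, stood at 103, 116 and 112 against 298, 279 and 287 (-1.38 ± 0.11), with PU near DMSO. TP53INP1, a p53-inducible regulator of death and autophagy, was higher with PU, at 3534, 3460.5 and 3339.6 against 2082, 2168 and 2028 (0.72 ± 0.05), and both groups lay over the DMSO mean of 748. Of 31 p53 targets 9 were higher and 10 lower (median 0.01), near the shares of all genes (28.3% and 28.6%). DDB2, which recognises ultraviolet damage, stood at 181, 197 and 208 with PU and 925, 906 and 979 with KPT. It fell below DMSO with PU (-0.41) and rose with KPT (1.84), a direct difference of -2.26 ± 0.08. The death gene BBC3 (PUMA) was lower, at 28, 52.7 and 47.5 against 109, 120.0 and 113 (-1.45 ± 0.19). The p53 targets C12orf5 (1.53 ± 0.08) and CD82 (0.72 ± 0.08) were higher with PU, and with KPT both lay below DMSO (-1.60 and -0.90). MDM2, the p53 ligase, did not pass the test (0.07, adjusted p = 0.29).

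DNA replication genes were lower with PU almost throughout, against 28.6% of all genes. Of 55 tested G1/S, replication and nucleotide synthesis genes, 51 were lower, 1 higher, and the median was -0.63. They took 0.579 to 0.589% of all reads with PU and 0.948 to 0.96% with KPT. Against DMSO, 53 of them fell with PU (median -0.69), while 12 rose and 17 fell with KPT (median -0.04). CCNE2, cyclin E2 of the entry into S phase, stood at 99.7, 111 and 96.8 normalized counts with PU and 416, 453 and 424 with KPT. It was 4.17-fold higher with KPT (PU minus KPT -2.06 ± 0.09 SE; limma adjusted p = 4.70e-23), the KPT libraries lying above DMSO (0.31) and the PU libraries below it (-1.75). E2F1, the transcription factor of this programme, stood at 549, 540.0 and 542 against 1472, 1433 and 1564, with no overlap (-1.45 ± 0.05). MCM7, a subunit of the replicative helicase, stood at 8187, 8405 and 8559 with PU and 17354, 16862 and 17293 with KPT. KPT lay by DMSO (0.07, adjusted p = 0.0877), and every PU library was lower (-1.03 ± 0.04). RRM2, which makes deoxynucleotides (-1.21), and the sliding clamp PCNA (-0.93) were lower too. SLBP, which binds the ends of histone mRNAs, was the 1 member higher with PU (0.32 ± 0.05), and POLA2, RFC2 and E2F3 did not pass the test.

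The E2F element, TTTCCCGC or its complement GCGGGAAA, was searched in the same promoters, a motif added after the values were seen. It occurred in 12 of 46 matched replication genes (26.1%), 11 of 173 (6.36%) genes at least 2-fold lower with PU, 2 of 245 (0.816%) at least 2-fold higher, 253 (2.83%) of tested promoters and 453 of 27305 (1.66%) in the table. The 11 genes at least 2-fold lower include IRS2 of the FOXO list and IFIH1 of the interferon list, and also MEX3A, OAS3 and MFGE8. Stretches holding the element are shown for 3 of the 11, chosen after their values were seen, with matched bases in capitals. They lie at chr7:100101562-100101599 on the minus strand for MCM7, chr10:94545765-94545787 on the plus strand for HELLS and chr9:96418371-96418406 on the minus strand for ZNF367.
MCM7: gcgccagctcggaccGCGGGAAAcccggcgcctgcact
HELLS: gcgagatgacaggatTTTCCCGC
ZNF367: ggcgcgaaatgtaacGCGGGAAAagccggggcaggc
HELLS, a chromatin remodeller, stood at 270.0, 267 and 285 normalized counts with PU and 606, 649.8 and 556 with KPT (-1.13 ± 0.08 SE), and the zinc finger gene ZNF367 at 206, 198 and 168 against 450.1, 470.4 and 425 (-1.24 ± 0.08). The other motifs searched, on both strands, were the ATF4 element TGATGNAA, the FOXO element GTAAACA, the E-box CACGTG, the antioxidant element TGACNNNGC and the sterol element TCACNCCAC. They occurred in 2.86, 2.04, 8.16, 16.3 and 0.408% of promoters of genes at least 2-fold higher, in 0.578, 2.89, 11.6, 17.9 and 1.16% of those at least 2-fold lower, and in 1.6, 2.2, 10.8, 15.5 and 1.12% of all tested promoters. These are descriptions of letters in a window of 300 bases.

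DNA repair genes were lower with PU as well, in 32 of 44 cases, with 4 higher (median -0.31), against 28.6% and 28.3% of all genes. MSH6, a mismatch repair protein, stood at 1700.2, 1597 and 1536 normalized counts with PU and 3049, 2738 and 2777 with KPT, with the groups well apart (-0.82 ± 0.05 SE; limma adjusted p = 1.50e-18). The checkpoint kinase CHEK1 (-0.83) was lower by a like amount on the log2 scale. Mitotic genes went the other way by small amounts, with 27 of 53 higher and 9 lower (median 0.16; 5 lower without KPT A). UBE2C, an enzyme of mitotic protein destruction, stood at 989, 1113 and 1136 against 723, 745 and 703 (0.57 ± 0.06), and CENPF and CCNB1 were higher by 0.55 and 0.38. PLK4, the kinase of centriole duplication, was lower (-0.70 ± 0.07). Of 18 cyclin D, CDK and CDK inhibitor genes, 7 were higher and 9 lower. CDK2, the partner of cyclin E, stood at 958, 983 and 972 with PU and 1896, 1853 and 1766 with KPT, rising with KPT (0.54) and falling with PU (-0.38) against DMSO (PU minus KPT -0.92 ± 0.05). CCND1 stood at 41819, 42858 and 44282 against 53835, 52212 and 53282, a small difference without overlap (-0.31 ± 0.04).

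MHC class II genes, which present peptides to helper T cells, were lower with PU. Of 18 tested MHC and peptide loading genes, 14 were lower and 0 higher (median -0.66), against 28.6% and 28.3% of all genes. The count of 0 higher was the same at an unadjusted p under 0.05 (limma) and in edgeR and DESeq2. HLA-DQA1 stood at 834, 786 and 832 normalized counts with PU and 2921, 2770.2 and 2931 with KPT. The DMSO mean of 1907 ± 27.1 (SD, n = 3) lay between, with PU below it (-1.22) and KPT above it (0.59), so the direct difference of -1.81 ± 0.05 (SE; limma adjusted p = 1.60e-30) exceeded both. HLA-DRB1, at 748, 748 and 759 against 2188, 2065 and 2019 (-1.47 ± 0.05), and HLA-DPB1, at 729.7, 712 and 738 against 1621, 1632 and 1727 (-1.19 ± 0.05), lay likewise on either side of DMSO. These polymorphic and similar genes share reads, so their single values are uncertain. CD74, the invariant chain of class II (-0.62), and RFX5, a class II transcription factor (-0.66), were lower as well. Class I differed less, with HLA-B at -0.32 and B2M, the shared light chain, at -0.45.

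Interferon-stimulated genes were lower with PU in 24 of 36 cases and higher in 4 (median -0.36), against 28.6% and 28.3% of all genes. Against DMSO, 21 rose and 1 fell with KPT, and 15 rose and 8 fell with PU. TRIM22, an antiviral ubiquitin ligase, stood at 1163, 1131 and 1151 normalized counts with PU and 3086, 3071 and 3083 with KPT. Both groups lay over the DMSO mean of 820.5 ± 16.5 (SD, n = 3), KPT the further (PU minus KPT -1.42 ± 0.05 SE; limma adjusted p = 4.66e-26). HERC5, which attaches the ubiquitin-like ISG15, stood at 187, 186 and 155 against 454, 590.4 and 547 (-1.58 ± 0.10), with PU near DMSO. The RNA sensor IFIH1 (-1.06) and OAS2 (-0.70) were lower too. BST2 (tetherin), which holds budding virus at the membrane, went the other way, at 4002, 4259 and 4198 against 1114, 1029 and 953. KPT lay by DMSO (0.12, adjusted p = 0.0575) and PU far above (PU minus KPT 2.01 ± 0.06).

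**Figure D4:**
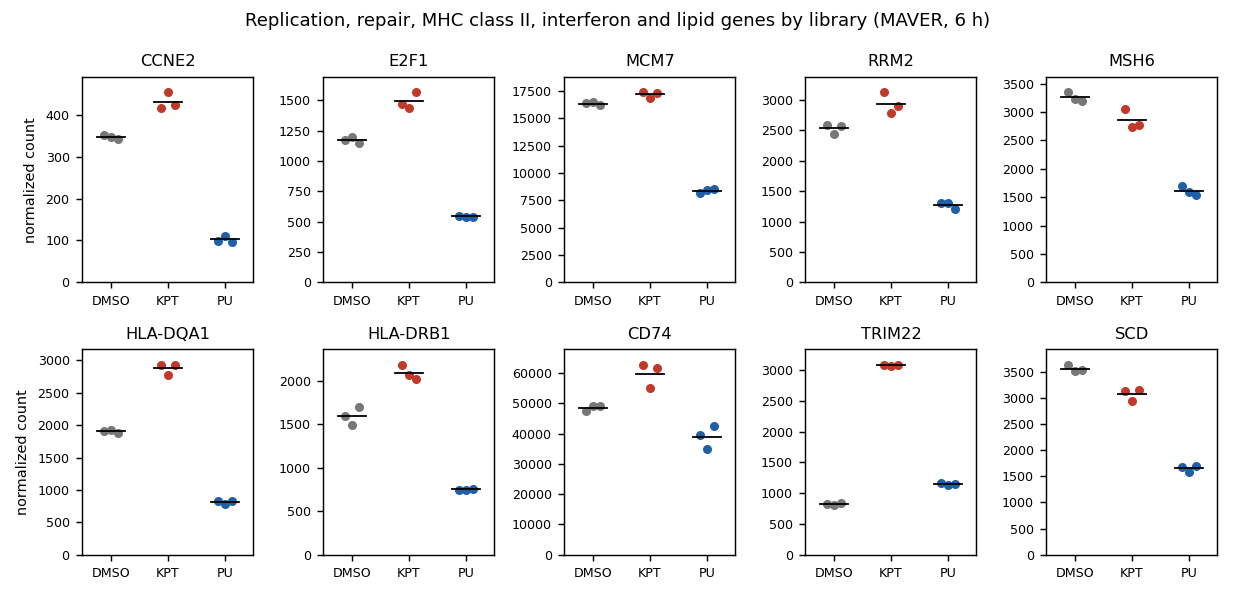
Normalized counts (y axes from 0) of 10 replication, repair, MHC class II, interferon and lipid genes by library; points are libraries and bars are means of n = 3. The 3 PU libraries lie below the 3 KPT libraries in every panel, and below DMSO in all but TRIM22.

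Most cholesterol and fatty acid synthesis, glycolysis and respiratory chain genes were lower with PU than with KPT, against 28.6% of all genes. Of 35 cholesterol and fatty acid synthesis genes, 24 were lower and 3 higher (median -0.42). SCD, which desaturates fatty acids, stood at 1676, 1584 and 1692 normalized counts with PU and 3136, 2941 and 3141 with KPT. Every PU library was lower (-0.90 ± 0.04 SE; limma adjusted p = 6.04e-21), and both groups lay below the DMSO mean of 3553. INSIG1, the sterol-sensing brake of this pathway, stood at 528, 544 and 501 against 1076, 1013 and 1068 (2.01-fold higher with KPT), rising with KPT against DMSO (0.72) and falling with PU (-0.28). Of 37 glycolysis and hypoxia genes 22 were lower and 8 higher (median -0.22). Their medians against DMSO were 0.04 with KPT and -0.03 with PU. HK2, the hexokinase, stood at 377, 385 and 352 with PU and 224, 206 and 227 with KPT, both far under the DMSO mean of 1119 ± 1.56 (SD, n = 3) but PU the nearer (0.76 ± 0.06). LDHA was lower (-0.53), as was NDRG1 (-1.36). Of 67 nuclear-encoded respiratory chain subunits, 40 were lower and 4 higher, by small amounts (median -0.15), with COX7B at -0.50. Against DMSO, 36 of these subunits rose and 11 fell with KPT (median 0.16), and 12 rose and 24 fell with PU (median -0.00). Mitochondrial ribosomal proteins were near the share of all genes (55.4% called, against 57.0%). Of 74, 26 were lower and 15 higher (median -0.07), among them MRPS6 at 1802, 1799.7 and 1649 against 655, 690.2 and 606 (1.43 ± 0.06).

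Growth and translation genes differed by little as groups. Of 55 nucleolar ribosome biogenesis factors, 26 were lower and 13 higher (median -0.11), against 28.6% and 28.3% of all genes. Against DMSO 48 of these factors fell with KPT and 50 with PU, beside 3167 and 3055 of all 11099 genes. POLR1A, the large subunit of RNA polymerase I, stood at 1795, 1697 and 1918 normalized counts with PU and 1245, 1127 and 1258 with KPT (0.58 ± 0.05 SE), while NPM1 was lower (-0.51). Of 74 cytosolic ribosomal proteins, 19 were lower and 2 higher, a share of 28.4% called, below that of all genes, and RPS27A was the lowest at -0.27. That count moved with the processing: it was 5 without the variance trend, 11 without PU C, 10 without KPT C, 8 with KPT B alone and 29 with libraries scaled to equal totals. MYC was lower with PU than with KPT, at 4905, 5061 and 5316 against 6779, 6412 and 6624 (-0.38 ± 0.04, limma adjusted p = 1.82e-10). With KPT it lay over DMSO (0.31), and PU did not pass the test against DMSO (-0.07, limma adjusted p = 0.17). Among polyamine genes, ODC1, the first enzyme, stood at 4862, 4714 and 4740.4 with PU and 13152, 13009.8 and 13161 with KPT. DMSO lay between, at 8549 ± 141 (SD, n = 3), and the direct difference was -1.46 ± 0.04. AZIN1, which shields ODC1 protein from its antizyme, was higher with PU, at 9526, 9544 and 8894 against 4009.8, 4061 and 3955 (1.22 ± 0.04). Among translation factors (17 of 41 higher, 12 lower), the repressor EIF4EBP1 stood at 1216, 1167 and 1267 against 344, 369 and 359, with KPT at the DMSO level (1.76 ± 0.07). EIF4G2, which serves alternative initiation, was lower (-0.98 ± 0.04).

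B cell signalling and identity genes were divided, beside shares of 28.3% higher and 28.6% lower over all genes. Of 26 NF-kB targets 9 were higher and 8 lower (median 0.01), near those shares. NFKBIA, which encodes the inhibitor IkB alpha, stood at 499.9, 500.3 and 566 normalized counts with PU and 837, 810.1 and 806 with KPT. KPT did not pass the test against DMSO (-0.09, adjusted p = 0.182), and all PU libraries were lower (PU minus KPT -0.65 ± 0.06 SE; limma adjusted p = 2.83e-12). TNFAIP3, another NF-kB brake, was lower (-0.78), while CFLAR, an inhibitor of death receptor signals, was higher at 1514, 1475 and 1499 against 664, 657 and 621 (1.21 ± 0.06). The chemokine CCL22 was low with KPT, with 5 reads in all, against 144 with PU, and PU lay at the DMSO level (36.5, 37.4 and 44.7 normalized counts with PU and a DMSO mean of 36.8). Of 32 B cell receptor components 14 were higher and 10 lower (median 0.08). LAT2, a membrane adaptor, stood at 1716, 1672 and 1738 with PU and 393, 393 and 346 with KPT. KPT lay below DMSO (-0.91) and PU above it (1.27), a direct difference of 2.18 ± 0.06. BTK, the kinase inhibited by ibrutinib, stood at 2544, 2476 and 2382 against 2805, 2846 and 2765, a small separation (-0.19 ± 0.04; limma adjusted p = 0.000317). Of 28 immediate early genes 9 were higher and 11 lower, with RGS2 (2.16) and IER5 (1.83) among the first and IER2 (-1.96) and JUNB (-0.82) among the second.

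Of 33 B cell and lymphoma identity genes, 12 were higher and 15 lower (median -0.10). IRF8, a B cell transcription factor, stood at 1200.4, 1185 and 1226 normalized counts with PU and 395, 399 and 405 with KPT, the groups lying on either side of DMSO (1.59 ± 0.06 SE; limma adjusted p = 2.24e-24). CD5, the surface protein typical of this lymphoma, was higher by 1.23 and MS4A1 (CD20) by 0.46 on the log2 scale, while SOX11 was lower, at 608, 636 and 707 against 1087, 1090.5 and 1079 (-0.74 ± 0.06). PU did not pass the test against DMSO for SOX11 (0.02, adjusted p = 0.789). PAX5 did not pass it in the direct comparison (-0.10, adjusted p = 0.0666). Surface and homing genes leaned to PU, with 17 of 31 higher and 7 lower (median 0.32), against 28.3% and 28.6% of all genes. IL21R, the receptor of a helper T cell cytokine, stood at 189, 165 and 203 against 50.2, 41.6 and 56.1, and PU lay near the DMSO mean of 206 ± 4.89 (SD, n = 3; PU minus KPT 1.90 ± 0.13). The cytokine IL16 stood at 2788, 2743 and 2803 with PU against 1334, 1392 and 1439 with KPT (limma adjusted p = 2.66e-21). The chemokine receptor CCR7 was also higher (0.63 on the log2 scale), and S1PR1, which guides lymphocytes out of tissue, was lower (-0.64).

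The remaining lists held no lean far from that of all genes, by counts, beside shares of 28.3% higher and 28.6% lower over all genes. Their called shares ran from 42.9% (proteasome) to 66.0% (lysosome and autophagy), against 57.0% of all genes. Of 33 apoptosis genes 12 were higher and 9 lower, with BCL2 at 0.09, MCL1 at 0.20 and APAF1 at -0.69 on the log2 scale. Of 50 lysosome and autophagy genes 15 were higher and 18 lower; the cathepsin CTSZ was higher (0.98 ± 0.06 SE), and RRAGD, a GTPase that signals amino acids to mTORC1, was lower at 53.5, 53.8 and 54.9 normalized counts against 149, 157 and 158 (-1.50 ± 0.15). Of 35 proteasome subunits 8 were higher and 7 lower (4 lower with KPT B alone). Of 43 splicing factors 12 were higher and 14 lower, with HNRNPH1 at -0.72 and SRSF7 at 0.66. Of 20 kinases and receptors known as Hsp90 clients, 6 were higher and 6 lower (median 0.04; 3 higher without PU A or in DESeq2), and of 11 MYC network genes 3 and 4.

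**Figure D5:**
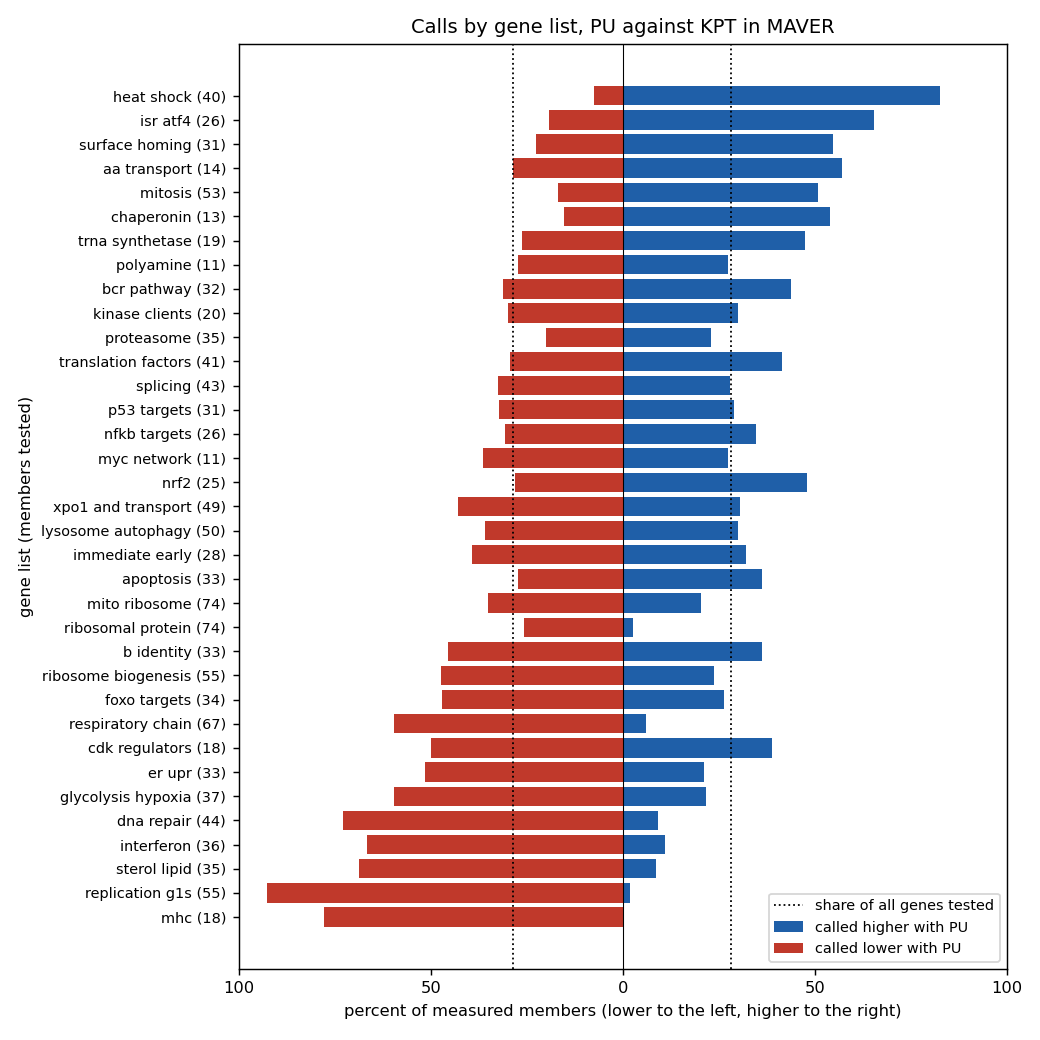
Percent of tested members called higher with PU (right, blue) and lower (left, red) for each gene list, ordered by median difference; dotted lines mark the shares of all genes tested (28.3% and 28.6%). Heat shock genes reach farthest to the right (33 of 40 higher), and replication genes (51 of 55 lower) and MHC genes (14 of 18 lower) farthest to the left.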

How the data were processed

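Per the labels' protocols and the submitters' processing notes, stranded RNA libraries were read by single-end sequencing, STAR aligned the reads, Cufflinks estimated abundance and DESeq2 tested them, with FastQC and the build hg19 also named and no versions given. Not given in the sources used here are the read counter, the strand setting and the gene annotation. What the authors deposited is a table of normalized counts, that is, a signal made from the reads of each gene divided by 1 factor per library. Whole reads could be recovered for 100.0% of values, within 0.01 read.

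Genes whose mean over the 12 MAVER libraries reached 10 were fitted with limma 3.58.1 in R 4.3.3 (lmFit, then eBayes with a variance trend) on log2(normalized count + 1), which understates changes of low genes. The 4 MAVER groups (DMSO, IB, KPT, PU; n = 3 each) were fitted together without a replicate block, and p-values were adjusted by Benjamini-Hochberg over all 11099 genes. The fit was tested on simulated data with known changes. Far fewer genes were changed there than were called here, with the same spread setting for every gene. That test therefore does not speak for the calls in these data. The alternatives were other pseudocounts, filters and scalings, eBayes without trend, the block, the 6 libraries alone, each replicate left out, KPT B as the only KPT library, thinned reads, and edgeR 4.0.16 (quasi-likelihood, TMM) and DESeq2 1.42.0 on recovered reads. Pairs of libraries of the same treatment differed beyond sampling noise (chi-square per degree of freedom 1.56 to 5.12), so none was taken as a copy. Same-lettered PU and KPT libraries deviated together by r = 0.03, 0.10 and 0.07 (A, B, C), each above the -0.08 to 0.02 of different letters. As all these values were weak, the letters were not taken as pairs in the main fit. The replicate block was fitted as an alternative.

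Named genes are the 15 largest rises and 15 largest falls among called genes whose mean reached 50 and whose PU and KPT libraries did not overlap, the 5 members of each of 38 lists with the smallest p, and XPO1, BTK, NFKBIA, CCND1, HSPA8, HSP90AA1 and RNA45S5. Other named genes were chosen after their values were seen. The members, lists and this rule were chosen with earlier results of these data known. In the table, 28 genes carry names altered to dates; 17 of them were tested and none is named.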

Additional observations from a re-analysis of the deposited data

How the results depend on the processing

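Over 21 alternative settings, 196 named genes gave 4111 gene and setting pairs. Of these pairs, 4108 kept their side of the threshold, 3 lost the call and 0 reversed a call. A gene called in neither fit was counted as kept, even where its direction changed. Most of these genes were chosen by the size or p-value of this same comparison, so this outcome was largely fixed in advance. It does not speak for the other calls. Genes named after their values were seen, such as HSP90AB1 and HSPD1, were not followed. The lost calls were SMS, spermine synthase, without PU C (-0.22, adjusted p = 0.0669) and with KPT B as the only KPT library (-0.22, adjusted p = 0.165), and EPCAM with KPT B alone (0.27, adjusted p = 0.107). The count of genes at least 2-fold lower was 386 with a minimum mean of 1 and 115 with a minimum mean of 50, against 227, and the count at least 2-fold higher was 203 with a minimum mean of 50, against 311; these filters change which genes are tested. Leaving out 1 replicate at a time gave 2909 to 2997 genes higher, 2914 to 2962 lower, 292 to 340 at least 2-fold higher and 226 to 242 at least 2-fold lower. With KPT B alone, assumed to vary like the other groups, 2618 genes were higher and 2375 lower. With the replicate block, 3138 genes were higher and 3162 lower, and edgeR gave 3167 and 3106, DESeq2 2834 and 2911, and thinned reads 2832 and 2828. Precision was lowest for low genes, with a median SE of 0.28 at means of 10 to 50 against 0.06 at 500 or more; the part of depth in this was not tested.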
